A study of Mus musculus with 8 samples.

Results

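Immediate early genes were examined in the white fat pad that lies along the epididymis of mice without the lysophosphatidic acid receptor LPA4 and of wild-type littermates. The 10 genes Fos, Fosb, Jun, Junb, Atf3, Egr1, Nr4a1, Ier2, Ier3 and Dusp1 were taken with every probe set that the platform annotation gives them, which came to 11 of 34945 probe sets with 1 gene symbol and to 10 of 18193 genes. Jun had 2 probe sets and the others 1 each. The 4 LPA4-KO arrays came from males with the deficient X-linked allele (Lpar4 -/Y) and the 4 WT arrays from males without it. All 8 mice were of the C57BL/6 background, 12 weeks old and fed standard chow, and the labels call the arrays biological replicates. The receptor was deficient in the whole animal, so a difference in fat need not arise in fat cells, and neither the deleted part of Lpar4 nor the way the tissue was taken beyond snap freezing is given in the sources used here.

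Immediate early genes need no new protein to be switched on. Growth factors, calcium, cyclic AMP and stress act through kinases on transcription factors that already sit at their promoters, and the RNAs appear within minutes and decay quickly. Most of the products are transcription factors, and others, such as Dusp1, shut the kinases off again. In tissue taken from an animal their RNA is also known to respond to handling, anaesthesia, warm ischaemia and dissection, so here their value on each array was also a check of how alike the animals were at collection. The question for each gene was whether the genotypes differed by more than the arrays of 1 genotype differed among themselves.

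Values are the deposited ones, read as log2 levels of probe sets. Errors of means are SD (n = 4 arrays), and errors of differences (LPA4-KO minus WT) are SE from limma. A probe set was called where its p, adjusted by Benjamini-Hochberg for all 34945 probe sets, was under 0.05. Of these, 28263 were nearly constant: their 8 values lay within 0.1 log2 of each other, with a median span of 0.000519 log2, and such flat values do not show that a gene was measured and did not change. The other 6682 (19.1%) are called varying here. A fit of the varying probe sets alone is given beside the fit of all, because it calls far more. The fit of all called 326 probe sets, or 0.933%, of which 65.6% were higher in LPA4-KO mice. The fit of the varying ones called 1259, or 18.8%, of which 44.3% were higher. After quantile normalization 94.6% of 21927 calls were higher, and after median centring 95.3% of 28378. The targeted gene was lower in LPA4-KO mice at 1 of its 3 probe sets (Lpar4 at 1452424_at, 5.74 to 5.86 on LPA4-KO arrays and 6.48 to 6.54 on WT arrays, adjusted p = 0.0033), while the other 2 overlapped between the genotypes with higher means in LPA4-KO mice, by 0.68 and 0.48 log2 (adjusted p = 0.23 and 0.39). The fat cell markers Adipoq and Fabp4 stood at 13.83 and 13.40 on every array of both genotypes, in a table whose highest value was 14.07.

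No immediate early gene was called. In limma 0 of 11 probe sets passed in the fit of all probe sets and 0 of 10 in the fit of the varying ones, and 4 of 11 (36.4%) had an unadjusted p under 0.05, against 16.9% of all probe sets and 38.9% of the varying ones. Those 4 were Junb, Ier2 and Ier3 on the lower side in LPA4-KO mice and 1 probe set of Jun on the higher side. The means of Fos, Egr1, Junb, Ier3 and Ier2 lay 1.27 to 1.72 times lower in LPA4-KO mice, and those of Jun 1.19 to 1.21 times higher. Among the 10 varying probe sets the median difference was -0.12 log2, beside -0.05 over all varying probe sets, and the median size of the difference was 0.31 log2, beside 0.18. The genotypes did not overlap at 1 of the 10, a probe set of Jun, beside 28.2% of all varying probe sets.

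One LPA4-KO array stood apart from the rest of its group. Replicate 2 had the highest LPA4-KO value at all 10 varying probe sets of the immediate early genes, and the highest value of all 8 arrays at 6 of them. Over all varying probe sets, replicate 2 was the highest LPA4-KO array in 22.5%. Without it, LPA4-KO and WT arrays did not overlap at 6 of the 10, with Fos, Junb, Egr1, Ier2 and Ier3 lower and Jun at 1448694_at higher in LPA4-KO mice, beside 33% of all varying probe sets. The array was left out because it was high in these genes, which lowers every estimate by construction, so this count and every p without replicate 2 describe the arrays and are no test. Without replicate 2, limma called 0 of the 11 probe sets in the fit of all probe sets, where only 10 of 34945 passed (0.0286%). In the fit of the varying ones Junb, Egr1 and Ier3, 3 of 10, then had an adjusted p under 0.05, beside 9.29% of all varying probe sets. Each varying immediate early gene is therefore described with and without this array.

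**Figure D1:**
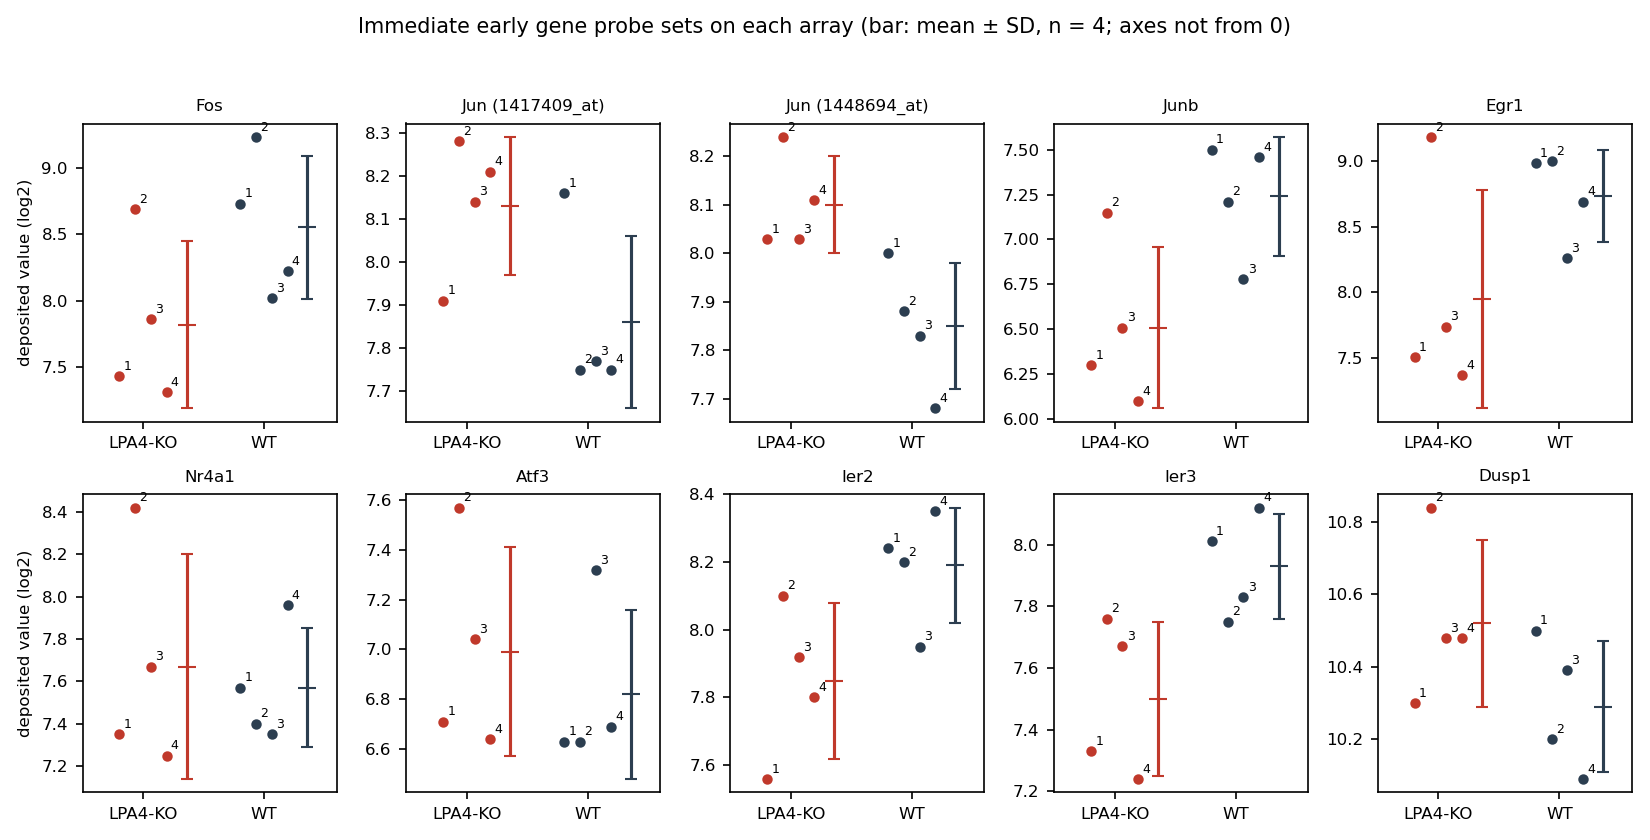
Deposited log2 value (vertical axis, with its own range in each panel) of the 10 varying probe sets on the 4 LPA4-KO arrays (left) and the 4 WT arrays (right), numbered by replicate, with mean ± SD at the side. LPA4-KO replicate 2 is the highest LPA4-KO point in every panel, and Egr1 runs from 7.37 to 9.18 among the LPA4-KO arrays.

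Fos and Junb encode subunits of the dimeric transcription factor AP-1, in which a Fos protein pairs with a Jun protein. Fos was at 7.43, 8.69, 7.86 and 7.31 in LPA4-KO replicates 1 to 4 and at 8.73, 9.23, 8.02 and 8.22 in WT replicates 1 to 4. LPA4-KO replicates 1, 3 and 4 lay below every WT array, and replicate 2 lay among the WT arrays. The means were 7.82 ± 0.63 in LPA4-KO and 8.55 ± 0.54 in WT mice, which differ by -0.73 ± 0.40 log2 with a 95% interval from -1.69 to 0.23. This did not pass in limma (adjusted p = 0.42 in the fit of all, 0.14 in the fit of the varying probe sets, exact permutation p = 0.114, two-sided). Without replicate 2 the difference was -1.02 ± 0.33 log2, or 2.03-fold lower in LPA4-KO mice, and still did not pass (limma adjusted p = 0.28, and 0.055 in the fit of the varying probe sets).

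Junb was at 6.30, 7.15, 6.51 and 6.10 on the LPA4-KO arrays and at 7.50, 7.21, 6.78 and 7.46 on the WT arrays. The pattern of Fos recurred, with replicates 1, 3 and 4 of LPA4-KO mice below all WT arrays and replicate 2 inside the WT range. Mean levels were 6.51 ± 0.45 in LPA4-KO and 7.24 ± 0.33 in WT mice, 1.65-fold lower in LPA4-KO (-0.72 ± 0.27 log2, 95% interval -1.38 to -0.07). Limma gave an adjusted p of 0.26 in the fit of all and 0.058 in the fit of the varying probe sets, and the exact permutation p was 0.0571. Without replicate 2 Junb was 1.91-fold lower in LPA4-KO mice (-0.94 log2, limma adjusted p = 0.17, and 0.029 in the fit of the varying probe sets). Over all alternative settings its adjusted p ran from 0.029 to 0.43.

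Fosb, another Fos family subunit, gave no measurement of use. Its probe set stood between 5.9751 and 5.9759 in LPA4-KO and between 5.9753 and 5.9762 in WT mice, among the nearly constant values.

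Jun, which pairs with Fos proteins or with itself, lay on the other side of the comparison. At 1448694_at Jun was at 8.03, 8.24, 8.03 and 8.11 on the LPA4-KO arrays and at 8.0, 7.88, 7.83 and 7.68 on the WT arrays. Every LPA4-KO array was above every WT array, by a gap that was small between LPA4-KO replicates 1 and 3 and WT replicate 1. The means were 8.10 ± 0.10 in LPA4-KO and 7.85 ± 0.13 in WT mice, 1.19-fold higher in LPA4-KO (0.25 ± 0.08 log2, 95% interval 0.06 to 0.45). The exact permutation p was 0.0286, the smallest that 4 against 4 arrays can give, with an adjusted p in limma of 0.19, and 0.069 in the fit of the varying probe sets. At 1417409_at Jun was at 7.91, 8.28, 8.14 and 8.21 in LPA4-KO and at 8.16, 7.75, 7.77 and 7.75 in WT mice. Here WT replicate 1 lay inside the LPA4-KO range, and the difference was 0.28 ± 0.13 log2 (limma adjusted p = 0.34, exact permutation p = 0.0857). Without LPA4-KO replicate 2 the differences were 0.21 log2 at 1448694_at and 0.23 log2 at 1417409_at. WT replicate 1 was the highest WT array at both probe sets, so leaving it out raises both differences by construction. Without it they were 0.31 and 0.38 log2, which describes the arrays and is no test. The fit of the varying probe sets then called both probe sets of Jun (limma adjusted p = 0.039 and 0.031), among 1352 calls of 6682. Over the alternatives the adjusted p of Jun ran from 0.017 to 0.33 at 1448694_at and from 0.031 to 0.52 at 1417409_at.

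Atf3, a stress-induced relative of the AP-1 subunits that can repress transcription, showed no genotype difference beyond its spread. It was at 6.71, 7.57, 7.04 and 6.64 in LPA4-KO and at 6.63, 6.63, 7.32 and 6.69 in WT mice. In each genotype 1 array stood high, replicate 2 of LPA4-KO and replicate 3 of WT. The difference was 0.17 ± 0.26 log2 (95% interval -0.46 to 0.80, limma adjusted p = 0.81), and without LPA4-KO replicate 2 it was -0.02 log2 (adjusted p = 0.99).

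Egr1 and Nr4a1 encode DNA-binding proteins of other families. Egr1, a zinc finger transcription factor induced by serum and growth factors, was at 7.51, 9.18, 7.74 and 7.37 in LPA4-KO and at 8.98, 9.0, 8.26 and 8.69 in WT mice. LPA4-KO replicate 2 was the highest of all 8 arrays and the other LPA4-KO arrays were the lowest. Replicate 2 exceeded the mean of the other LPA4-KO arrays by 1.64 log2, or 3.12-fold, and Egr1 had a larger SD within genotypes than 99.6% of varying probe sets. The means were 7.95 ± 0.83 in LPA4-KO and 8.73 ± 0.35 in WT mice, which differ by -0.78 ± 0.44 log2 (95% interval -1.83 to 0.27, limma adjusted p = 0.43, exact permutation p = 0.143). Without replicate 2 Egr1 was 2.28-fold lower in LPA4-KO mice (-1.19 ± 0.21 log2, limma adjusted p = 0.12, and 0.020 in the fit of the varying probe sets), on arrays chosen by the value of Egr1 itself. Its adjusted p ran from 0.02 to 0.63 over the alternatives.

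Nr4a1, an orphan nuclear receptor that cyclic AMP and calcium induce, was at 7.35, 8.42, 7.67 and 7.25 in LPA4-KO and at 7.57, 7.40, 7.35 and 7.96 in WT mice. The genotypes overlapped, with LPA4-KO replicate 2 above and replicate 4 below every WT array. The difference was 0.10 ± 0.29 log2 (95% interval -0.59 to 0.79, limma adjusted p = 0.91) and turned to -0.15 log2 without that array (adjusted p = 0.79).

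Ier2 and Ier3 are small immediate early response genes, Ier2 coding for a nuclear protein and Ier3 for a regulator of cell survival. Ier2 was at 7.56, 8.10, 7.92 and 7.80 in LPA4-KO and at 8.24, 8.20, 7.95 and 8.35 in WT mice. Replicate 2 was the only LPA4-KO array inside the WT range. The means were 7.85 ± 0.23 in LPA4-KO and 8.19 ± 0.17 in WT mice, 1.27-fold lower in LPA4-KO (-0.34 ± 0.14 log2, limma adjusted p = 0.28, and 0.083 in the fit of the varying probe sets). Ier3 was at 7.33, 7.76, 7.67 and 7.24 in LPA4-KO and at 8.01, 7.75, 7.83 and 8.12 in WT mice, with replicate 2 just above the lowest WT array. Its means were 7.50 ± 0.25 in LPA4-KO and 7.93 ± 0.17 in WT mice, 1.34-fold lower in LPA4-KO (-0.42 ± 0.15 log2, limma adjusted p = 0.23, and 0.055 in the fit of the varying probe sets). The exact permutation p was 0.0571 for each. Without replicate 2 Ier2 was 1.34-fold and Ier3 1.42-fold lower in LPA4-KO mice (limma adjusted p = 0.25 and 0.21, and 0.063 and 0.04996 in the fit of the varying probe sets). Over the alternatives the adjusted p ran from 0.048 to 0.44 for Ier2 and from 0.029 to 0.41 for Ier3.

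Dusp1, the phosphatase that inactivates p38, JNK and ERK kinases and so ends the signals that induce these genes, was at 10.30, 10.84, 10.48 and 10.48 in LPA4-KO and at 10.50, 10.20, 10.39 and 10.09 in WT mice. The genotypes overlapped, with replicate 2 of LPA4-KO the highest array. The difference was 0.23 ± 0.14 log2 (95% interval -0.11 to 0.56, limma adjusted p = 0.47), and 0.12 log2 without replicate 2. The sign of Dusp1 was that of Jun and opposite to that of Fos, Junb and Egr1. Whether the differences of these genes differ from each other was not tested.

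**Figure D2:**
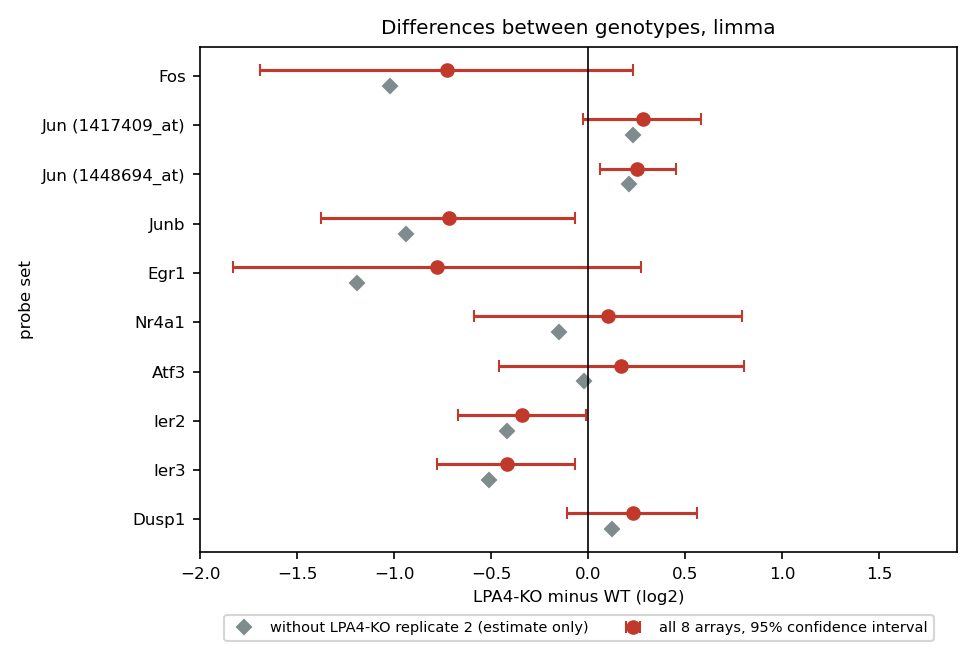
Difference between genotypes (horizontal axis, LPA4-KO minus WT, log2) of the 10 varying probe sets, with points and bars for the estimate and 95% interval from limma on all 8 arrays, and diamonds for the estimate without LPA4-KO replicate 2. Leaving that array out moves every estimate to the left, Egr1 to -1.19 and Fos to -1.02, and takes Nr4a1 and Atf3 past 0.

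Arrays of 1 genotype differed widely in 5 of these genes. The highest and lowest LPA4-KO arrays were 3.51-fold apart for Egr1, 2.61-fold for Fos, 2.25-fold for Nr4a1, 2.07-fold for Junb and 1.91-fold for Atf3. The WT arrays were 1.67-fold apart for Egr1, 2.31-fold for Fos, 1.53-fold for Nr4a1, 1.65-fold for Junb and 1.61-fold for Atf3. The SD within genotypes of these 5 genes was above that of 96.8% to 99.6% of varying probe sets. For Jun, Ier2, Ier3 and Dusp1 it was above that of 33.7% to 77.1%. The mean of the 9 varying genes was 7.60, 8.44, 7.89 and 7.60 in LPA4-KO replicates 1 to 4 and 8.26, 8.15, 7.96 and 8.15 in WT replicates 1 to 4. Replicates 1 and 4 of LPA4-KO mice were thus the lowest arrays and replicate 2 the highest, while the WT arrays stayed between 7.96 and 8.26.

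**Figure D3:**
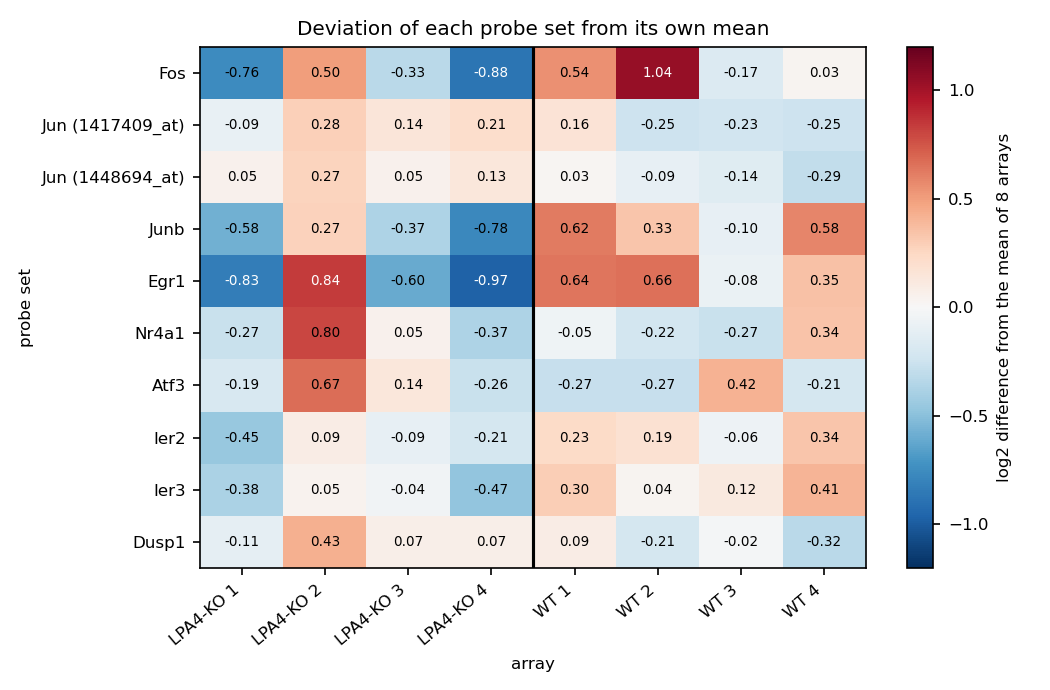
Each varying probe set (rows) on each array (columns, LPA4-KO left of WT) as its log2 difference from its own mean over the 8 arrays, red above and blue below. The column of LPA4-KO replicate 2 is red throughout, and LPA4-KO replicates 1 and 4 are blue for Fos, Junb, Egr1, Nr4a1, Atf3, Ier2 and Ier3.

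From array to array the genes moved together. Over the 8 arrays the deviations from the genotype means of the 9 varying genes correlated positively in all 36 pairs, with Pearson's r between 0.13 and 0.90 and a median of 0.54. The pairs of Egr1 with Fos, Junb with Egr1 and Junb with Nr4a1 were each at 0.90. Without LPA4-KO replicate 2 only 24 of the 36 were positive and the median was 0.26, with Egr1 and Fos at 0.89, Nr4a1 and Ier3 at 0.91, and Jun and Dusp1 at 0.82. Atf3 was at -0.58 with Egr1 and at -0.52 with Junb over those 7 arrays. The points of each correlation share their arrays and so any difference in RNA or hybridisation between arrays, and the values are descriptions. Among 4020 other varying genes, those closest to the mean deviation of the immediate early genes over the 8 arrays were Pon1 (r = 0.95), which encodes the esterase paraoxonase 1, the stem cell marker gene Prom1 (0.94), the aldehyde oxidase gene Aox3 (0.93), the ERK phosphatase gene Dusp6 (0.92) and the phosphate transporter gene Slc20a1 (0.91). Without LPA4-KO replicate 2 they were at 0.85, 0.61, 0.63, 0.60 and 0.75. Only Dusp6 of these is itself an immediate early gene.

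Promoters of 8 of the 10 genes were found in the RefSeq table of mouse assembly GRCm38.p6, and Egr1 and Ier2 had no entry. The window ran from 250 bases before the annotated start of transcription to 50 bases after it, 300 bases in all. The promoters of Fos and Junb, which were lower in LPA4-KO replicates 1, 3 and 4, and of Jun and Dusp1, which were not, are shown for comparison, each 5′ to 3′ on the strand of its gene. Fos lies at chr12:85473640-85473939 on the plus strand, Junb at chr8:84978699-84978998, Jun at chr4:95052173-95052472 and Dusp1 at chr17:26508423-26508722, these 3 on the minus strand. Capitals mark TGACG, the core of the site of the cyclic AMP response factor CREB, the longer TGACNTCA, and the TATA box TATAAA.
Fos: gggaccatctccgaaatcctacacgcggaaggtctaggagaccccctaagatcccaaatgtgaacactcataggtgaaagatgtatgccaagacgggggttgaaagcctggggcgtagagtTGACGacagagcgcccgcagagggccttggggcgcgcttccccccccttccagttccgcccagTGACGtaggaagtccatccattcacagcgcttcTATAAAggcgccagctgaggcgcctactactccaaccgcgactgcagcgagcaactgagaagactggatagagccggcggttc
Junb: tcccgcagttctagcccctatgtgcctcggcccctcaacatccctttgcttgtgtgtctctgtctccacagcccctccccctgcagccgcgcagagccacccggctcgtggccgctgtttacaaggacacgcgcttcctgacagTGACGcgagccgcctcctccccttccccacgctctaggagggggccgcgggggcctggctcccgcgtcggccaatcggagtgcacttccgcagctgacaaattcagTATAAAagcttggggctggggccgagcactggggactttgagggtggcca
Jun: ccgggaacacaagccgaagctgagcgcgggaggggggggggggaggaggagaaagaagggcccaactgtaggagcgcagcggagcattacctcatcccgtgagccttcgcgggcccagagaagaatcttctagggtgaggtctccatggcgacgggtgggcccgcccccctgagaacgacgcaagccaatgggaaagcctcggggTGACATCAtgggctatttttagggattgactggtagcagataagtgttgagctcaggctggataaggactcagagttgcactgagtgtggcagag
Dusp1: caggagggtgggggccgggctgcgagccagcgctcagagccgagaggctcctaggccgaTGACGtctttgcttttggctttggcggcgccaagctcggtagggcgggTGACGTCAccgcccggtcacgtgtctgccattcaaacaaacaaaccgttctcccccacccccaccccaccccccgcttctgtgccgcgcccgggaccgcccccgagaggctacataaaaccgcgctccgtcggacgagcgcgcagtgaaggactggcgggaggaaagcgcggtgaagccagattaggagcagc

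Fos had TGACG 66 and 129 bases and TATAAA 33 bases before the start of transcription, and Junb had TGACG 106 bases before it and TATAAA at the start itself. Jun had 1 TGACATCA 45 bases before the start, which is the form of TGACNTCA that Jun and Atf2 dimers bind, and no TGACG or TATAAA. Dusp1 had TGACGTCA 143 bases before the start and another TGACG at 191 bases. Both strands were searched, and TGACG overlaps TGACNTCA where the full site is TGACGTCA. TGACG stood in 6 of the 8 promoters (Atf3, Dusp1, Fos, Fosb, Junb and Nr4a1), beside 20.8% of 32851 promoters of the same length. TGACNTCA stood in 2 (Dusp1 and Jun), beside 8.83%, and TATAAA in 2 (Fos and Junb), beside 13.6%. The AP-1 site TGANTCA was in 0 of the 8, beside 7.81%, and the CArG box of serum response factor in 0, beside 1.63%. Ier3, also lower in LPA4-KO replicates 1, 3 and 4, had none of these motifs. Any link between motifs and values was not tested. A match describes the letters of this window and no match says only that they are not in it.

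Other immediate early genes lay on both sides. All 43 of a list of further genes of this class had a probe set. Of their 86 probe sets 51 varied, and 0 were called in the fit of all (limma, 22 of 86 with an unadjusted p under 0.05, beside 16.9% of all probe sets). The differences of the varying ones were positive in 26 and negative in 25, with a median of 0.02 log2. The fit of the varying probe sets called 6 of the 51, with 2 on the higher and 4 on the lower side in LPA4-KO mice, a smaller share than the 18.8% over all varying probe sets. Klf10, a zinc finger factor induced by TGF-beta, was at 7.97, 8.14, 8.05 and 7.89 in LPA4-KO and at 8.75, 9.15, 8.56 and 8.98 in WT mice. Klf10 did not overlap between the genotypes and replicate 2 did not stand out (-0.85 ± 0.13 log2, limma adjusted p = 0.053, and 0.0074 in the fit of the varying probe sets). Gadd45b, a stress-induced binding partner of kinases of the p38 and JNK pathways, was at 7.21, 7.61, 7.61 and 7.52 in LPA4-KO and at 8.06, 8.27, 8.04 and 8.63 in WT mice (-0.76 ± 0.16 log2, limma adjusted p = 0.094, and 0.014 in the fit of the varying probe sets). The other calls of that fit, named after their values were seen, were Pim1, a kinase gene, at -0.42 ± 0.13 log2, and on the higher side the small GTPase gene Rhob at 0.64 ± 0.15 and the EGF receptor inhibitor gene Errfi1 at 1.01 ± 0.36 log2. Without LPA4-KO replicate 2 the differences were -0.89 log2 for Klf10, -0.80 for Gadd45b, -0.44 for Pim1, 0.65 for Rhob and 1.05 for Errfi1, and Pim1 and Errfi1 were no longer called (limma adjusted p = 0.082 each in the fit of the varying probe sets). Btg1 (-0.08 ± 0.13) and Mcl1 (0.17 ± 0.09), the members with the highest values, did not pass. Replicate 2 was the highest LPA4-KO array in 16 of the 31 varying genes of the list, and the mean over them was 8.19 to 8.51 in LPA4-KO and 8.33 to 8.46 in WT mice.

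Upstream of these genes, the kinases were mostly nearly constant. Of 16 varying probe sets of transcription factors 13 were negative, with a median of -0.16 log2, beside -0.05 over all varying probe sets. At least 3 of the 16 are of Stat3 alone, so they do not stand for 16 separate genes. Of 20 genes of the growth factor and stress kinase pathway 13 had a probe set and the other 7 were not analysed here. Only 4 of their 41 probe sets varied, and 0 were called in either fit (limma, 5 of 41 with an unadjusted p under 0.05, beside 16.9%). The kinase gene Rps6ka3 differed by 0.12 ± 0.06 log2 (limma adjusted p = 0.38), and Mapk14 and Map2k2 were nearly constant. Of 18 transcription factors that act on immediate early promoters 16 had a probe set, and of 56 probe sets 16 varied. In the fit of all 0 were called by limma (11 of 56 with an unadjusted p under 0.05, beside 16.9% of all probe sets), and the fit of the varying ones called 3 of 16 lower, all of Stat3, a share like the 18.8% over all varying probe sets. Stat3, the factor activated by interleukin 6 type cytokines and leptin, was at 8.97, 9.15, 9.16 and 9.16 in LPA4-KO and at 9.68, 9.90, 9.58 and 9.46 in WT mice, without overlap (-0.55 ± 0.10 log2, or -0.56 without LPA4-KO replicate 2, limma adjusted p = 0.074, and 0.012 in the fit of the varying probe sets). Mrtfb (-0.21 ± 0.09), the coactivator of serum response factor, and its partner Elk4 (-0.15 ± 0.09) did not pass, and Mef2a was nearly constant.

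Genes that EGR1 and AP-1 are known to induce did not pass in either fit of all 8 arrays. Of 12 genes 10 had a probe set, and 7 of 16 probe sets varied. Their median difference was -0.11 log2, beside -0.05 over all varying probe sets. Of the 16, 0 were called (limma, 2 with an unadjusted p under 0.05, beside 16.9% of all probe sets). Plau, the urokinase gene, was at 7.42, 8.08, 7.73 and 7.73 in LPA4-KO and at 8.08, 8.04, 7.98 and 8.05 in WT mice, with replicate 2 again the only LPA4-KO array at the WT level (-0.30 ± 0.13 log2, limma adjusted p = 0.32). Without that array Plau differed by -0.41 ± 0.09 log2 (limma adjusted p = 0.15, and 0.041 in the fit of the varying probe sets). Vegfa differed by -0.25 ± 0.25 log2, and Nab1 and Mmp13 were nearly constant.

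Among other stress responses, heat shock genes, which encode chaperones, had another order of arrays. In the fit of all 3 of 29 probe sets were called higher in LPA4-KO mice, beside 0.933% called over all probe sets, and in the fit of the varying ones 11 of 25, beside 18.8%, with 0 called lower in either. The mean over 10 varying heat shock genes was 10.12, 9.89, 9.94 and 9.99 in LPA4-KO and 9.73, 9.59, 9.59 and 9.50 in WT mice. Replicate 2 was the lowest LPA4-KO array there, and it was the highest LPA4-KO array in 0 of those 10 genes, although it was so in all 9 varying immediate early genes. Dnaja1 was higher by 0.54 ± 0.06 and 0.49 ± 0.08 log2 at 2 probe sets (limma adjusted p = 0.032 and 0.049) and Hspd1 by 0.28 ± 0.03 log2 (0.032), while Hspa8 (0.11 ± 0.03) and Hsp90aa1 (0.22 ± 0.11) did not pass in the fit of all. Without any 1 of the 8 arrays at most 1 heat shock probe set was called in the fit of all. The calls over all probe sets then fell from 326 to between 10 and 125. Genes induced by glucocorticoids, the stress hormones of the adrenal, had 1 of 33 probe sets called in the fit of all, beside 0.933%. In limma 4 of the 33 had an unadjusted p under 0.05, beside 16.9% of all probe sets. The called one was Mt1, a metallothionein gene, at 1451612_at (8.16 ± 0.24 in LPA4-KO and 6.95 ± 0.18 in WT mice, limma adjusted p = 0.034). It was not called in the fit of all without any 1 of the 8 arrays, where only 10 to 125 of all probe sets were. Its differences stayed between 1.11 and 1.30 log2. Without LPA4-KO replicate 2 the fit of the varying probe sets still called it (limma adjusted p = 0.018). The other probe set of Mt1, 1422557_s_at, went against it (-0.37 ± 0.22 log2, adjusted p = 0.45). The fit of the varying probe sets called 2 of 29, a smaller share than the 18.8% over all varying probe sets. It added Errfi1, which also stands in the list of other immediate early genes. Sgk1 differed by 0.18 ± 0.06 and Klf9 by -0.13 ± 0.15 log2 and did not pass, and the mean over 15 varying genes overlapped (9.89 to 10.35 in LPA4-KO, 9.76 to 10.22 in WT).

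Genes induced by NF-kappaB, the inflammatory transcription factor, had 0 of 22 probe sets called in the fit of all. In limma 3 of the 22 had an unadjusted p under 0.05, beside 16.9% of all probe sets. The fit of the varying probe sets called 2 of 14, both of the inhibitor gene Nfkbia and higher in LPA4-KO mice, a smaller share than the 18.8% over all varying probe sets. Nfkbia differed by 0.30 ± 0.09 log2 (limma adjusted p = 0.17 in the fit of all and 0.038 in that of the varying probe sets, and 0.079 there without LPA4-KO replicate 2). The mean over 7 varying genes was 8.04, 8.17, 8.02 and 7.95 in LPA4-KO and 8.01, 8.04, 8.01 and 8.78 in WT mice, so replicate 2 was again the highest LPA4-KO array. The interferon regulatory factor gene Irf1 differed by -0.15 ± 0.15 log2, and Bcl3 was nearly constant. Genes induced by hypoxia also had 0 of 25 called in the fit of all (limma, 11 with an unadjusted p under 0.05, beside 16.9% of all probe sets), and 6 of 17 varying ones were called lower in the fit of those, from Adm, Ndrg1 and Pfkfb3, beside 18.8% of all varying probe sets. Adm, the gene of the vasodilator peptide adrenomedullin, differed by -0.63 ± 0.12 log2 (limma adjusted p = 0.076 in the fit of all, and 0.012 in that of the varying probe sets). Ndrg1, at the probe set with its highest mean, differed by -0.33 ± 0.11 log2 and was not called there (adjusted p = 0.22 and 0.054), the calls being at its other probe sets, while Bnip3 (0.01 ± 0.07) and the lactate dehydrogenase gene Ldha (0.04 ± 0.06) did not pass. The mean over 9 varying hypoxia genes was 9.64, 9.90, 9.82 and 9.88 in LPA4-KO and 9.95, 9.84, 9.88 and 9.84 in WT mice, with replicate 2 the highest and replicate 1 the lowest LPA4-KO array.

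**Figure D4:**
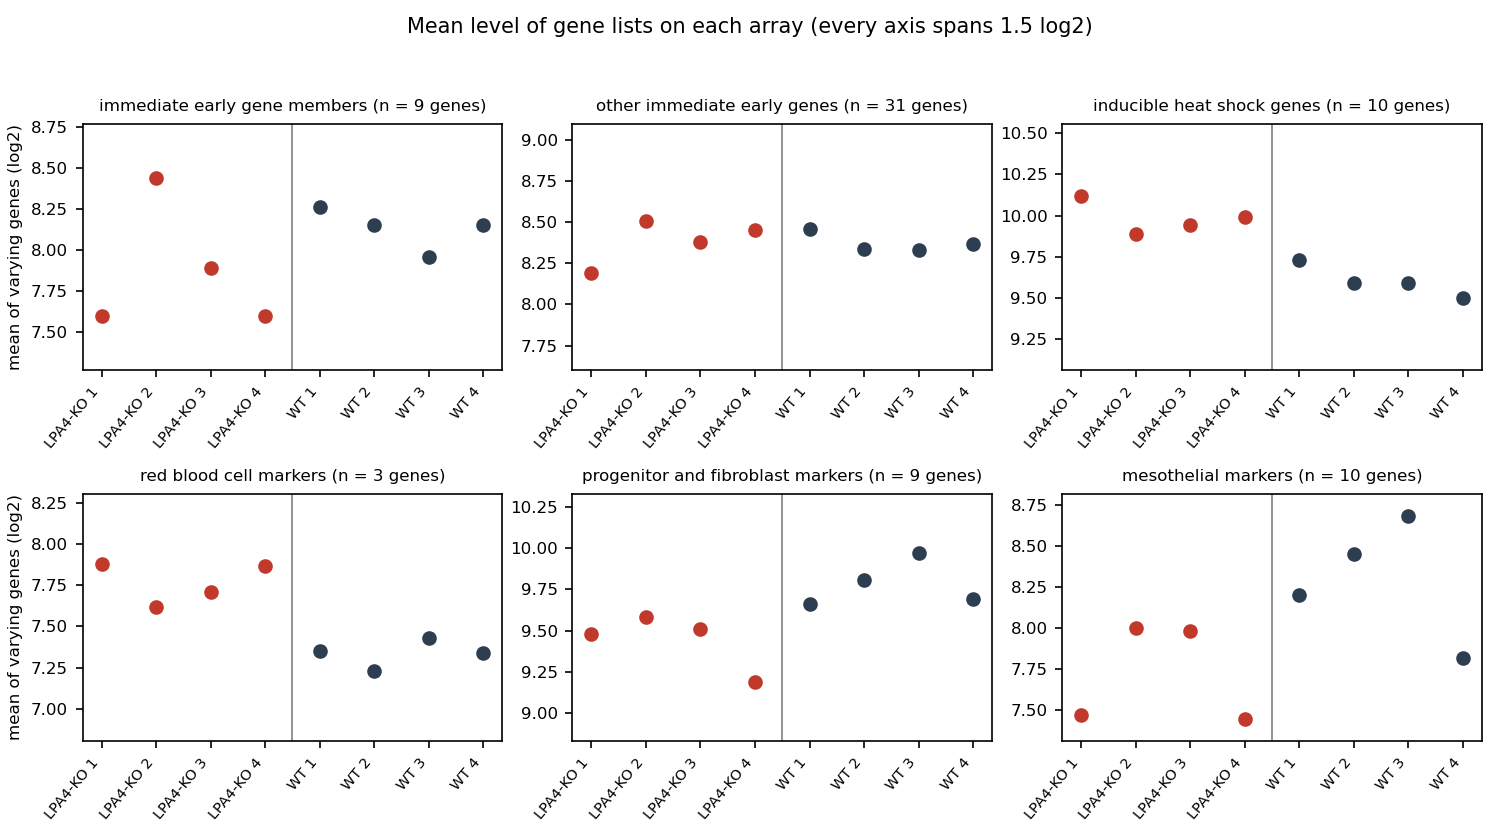
Mean log2 value over the varying genes of 6 lists (vertical axes, each spanning the same 1.5 log2) on each array, LPA4-KO left of WT. The immediate early genes peak in LPA4-KO replicate 2 at 8.44, whereas the heat shock and red blood cell lists are higher and the progenitor list is lower on all LPA4-KO arrays.

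Of the 9 lists of cell type markers, the array means did not overlap between the genotypes in those of progenitors and fibroblasts and of red blood cells, and overlapped in the others. In bulk tissue fewer cells of a type and less RNA per cell cannot be told apart. The mean over 9 varying progenitor and fibroblast markers was 9.19 to 9.58 in LPA4-KO and 9.66 to 9.97 in WT mice. All 14 varying probe sets were negative, with a median of -0.45 log2, beside -0.05 over all varying probe sets. In the fit of all 2 of 18 probe sets, 1 each of Dpt and Dcn, were called lower, beside 0.933% called over all probe sets. The fit of the varying ones called 8 of 14 lower, beside 18.8%. That over 10 mesothelial markers was 7.47, 8.0, 7.98 and 7.45 in LPA4-KO and 8.20, 8.45, 8.68 and 7.82 in WT mice, so that LPA4-KO replicates 1 and 4 were lowest there as in the immediate early genes, while replicates 2 and 3 were alike. Macrophage markers were at 9.94 to 10.16 in LPA4-KO and 10.06 to 10.41 in WT mice, and endothelial markers at 8.25 to 8.54 in LPA4-KO and 8.50 to 8.73 in WT mice. In the fit of all 0 probe sets of these lists or of the mesothelial markers were called. In limma 4 of 14 macrophage, 4 of 14 endothelial and 8 of 17 mesothelial probe sets had an unadjusted p under 0.05, beside 16.9% of all. The fit of the varying probe sets called 4 of 17 mesothelial and 2 of 13 macrophage ones lower and 0 of 7 endothelial ones, beside 18.8%. Smooth muscle markers (8.44 to 8.61 in LPA4-KO, 8.26 to 8.71 in WT), mast cell and neutrophil markers (6.46 to 6.88 in LPA4-KO, 6.78 to 7.02 in WT) and fat cell markers (11.19 to 11.30 in LPA4-KO, 10.89 to 11.27 in WT) overlapped as well. Of 11 varying smooth muscle probe sets the fit of those called 1 lower and 1 higher, a share like the 18.8% over all varying probe sets. Both were of actin genes without overlap. Acta2 differed by -1.31 ± 0.21 log2 (limma adjusted p = 0.057 in the fit of all, and 0.0066 in that of the varying ones). Actg2 differed by 0.74 ± 0.15 log2 (limma adjusted p = 0.083 and 0.014). Of 11 varying fat cell probe sets 2, both of Slc2a4, were called higher in the fit of those, again a share like the 18.8%. Of 5 varying mast cell and neutrophil ones 0 were called. Red blood cell markers were at 7.62 to 7.88 in LPA4-KO and 7.23 to 7.43 in WT mice, with all 6 varying probe sets positive. In the fit of all 2 of 10 probe sets were called higher, beside 0.933%, both of Slc4a1, the anion exchanger of the red cell membrane. The fit of the varying ones called 5 of 6 higher, beside 18.8%. Of 10 lymphocyte markers only 2 varied, with a mean of 6.60 in LPA4-KO replicate 2, 5.96 to 6.09 in the other LPA4-KO arrays and 6.15 to 7.18 in WT mice. The part of these markers in the values of the immediate early genes was not tested, and no label gives a dissection order, time or batch that could be set beside them.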

How the data were processed

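Total RNA of epididymal fat was hybridised to Affymetrix 3′ expression arrays, 1 array per sample, per the labels' protocols. The authors deposited 1 value per probe set and array, used here as log2 values. That scale is read from the values, which run from 5.27 to 14.07 with array medians of 6.5 to 6.51. R 2.14.0 is named in the submitters' processing notes; for background correction, normalization and summarisation the sources used here give nothing. Scanner files were not used here, so signal above background could not be judged, and precision is limited by having 4 arrays per group.

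Gene names come from the annotation of the platform: 34945 of 45101 had 1 gene symbol, 932 several, 9160 none, and 64 were controls. Of the named ones 34741 matched a RefSeq gene by Entrez number. The genotypes were compared in R 4.3.3 by limma 3.58.1 (lmFit; eBayes with trend = TRUE; no block and no filter), and p-values were adjusted by Benjamini-Hochberg over all named probe sets. For single probe sets the difference in means was also permuted over all 70 arrangements of the arrays (exact, two-sided). Genes in a list mean or a correlation were represented by the probe set with the highest mean. The steps were tested on simulated data. Promoters were searched for motifs in the RefSeq table of GRCm38.p6.

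The 10 genes, the 8 pathway lists, the 9 marker lists and the limit of 0.1 log2 were chosen with earlier results of these data known. Named were all 10 genes, and for each pathway list all called members, the 2 of smallest p and the 2 of highest value. The 5 genes most alike were named by the correlation of deviations from the genotype means. Alternatives were varying probe sets only, a filter on level, quantile normalization, median centring, eBayes without trend or robust, array weights, a replicate block, each array left out, 1 probe set per gene and the mean per gene. Combinations with the fit of varying probe sets were added after seeing the data.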

Additional observations from a re-analysis of the deposited data

Results flagged for a closer look

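With groups of 4, a sample was singled out where its gap to the nearest other exceeded the 95% critical share of the range of its group in Dixon's test. Of 58 groups tested 3 had such a sample, and chance gives about 1 in 20. None of the 3 was an LPA4-KO array: replicate 2 of LPA4-KO mice was high in many genes, but its gap to the next array did not reach that share in any of them. Jun at 1417409_at was at 8.16 in WT replicate 1, against 7.75 to 7.77 in the other WT arrays, which is inside the LPA4-KO range. Atf3 was at 7.32 in WT replicate 3, against 6.63 to 6.69 in the other WT arrays. The mean over 7 varying NF-kappaB induced genes was 8.78 in WT replicate 4, against 8.01 to 8.04 in the other WT arrays and 7.95 to 8.17 in LPA4-KO mice. In that WT array Icam1 was at 9.22, Cxcl2 at 7.24 and Tnf at 7.13, genes named after their values were seen.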

How the results depend on the processing

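Of 304 differences of immediate early gene probe sets under 18 planned and 11 added alternatives, 281 kept their direction and their side of the threshold. Another 14 kept their direction and passed it, and 9 turned sign. Of those 9 only Fosb after median centring also passed it (limma adjusted p = 0.016). Fosb turned to 0.00115 after quantile normalization and 0.01 after median centring, and ran from -0.000151 to 0.000151 without single arrays (0.00012 without LPA4-KO replicate 2, 2.94e-07 without replicate 4). Without single arrays Nr4a1 ran from -0.15 to 0.24, Atf3 from -0.02 to 0.34, Bnip3 from -0.05 to 0.07, Cxcl2 from -0.48 to 0.02 and Tnf from -0.23 to 0.09. Nr4a1 and Atf3 were negative only without LPA4-KO replicate 2, Cxcl2 and Tnf positive only without WT replicate 4, and Bnip3 negative only without LPA4-KO replicate 4 or (-0.01) WT replicate 4. Mt1 at 1422557_s_at turned to 0.41 as the mean of probe sets per gene. Of the 11 immediate early gene probe sets 3 were called after quantile normalization and 5 after median centring, with Fosb among the 5. These are smaller shares than the 21927 and 28378 of all 34945 probe sets called there. In the fit of the varying ones 1 of 10 was called after quantile normalization, beside 1284 of 6682. Without single arrays 0 to 3 were called, all of these in the fit of the varying ones, beside 494 to 1352 of 6682.

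Over all probe sets 326 calls became 1259 (varying), 595 (above the median level), 21927 (quantile), 28378 (median centring), 535 (array weights) and 10 to 125 without single arrays. The 1259 among the varying ones became 494 to 1352 without single arrays, 1284 after quantile normalization and 1269 after median centring. Over all probe sets both scalings move the nearly constant ones, and the median difference becomes 0.00389 and 0.0072 log2. Calls in the order varying, above median, quantile, centring were 6, 1, 46 and 49 for other immediate early genes, 3, 2, 29 and 36 for upstream factors, 11, 5, 18 and 18 for heat shock and 6, 1, 15 and 17 for hypoxia. Quantile and centring gave 25 and 32 for the kinases, 6 and 8 for EGR and AP-1 induced genes, 7 and 8 for glucocorticoid and 9 and 11 for NF-kappaB genes, with 2 among the varying ones for each of the last lists. Array weights gave 1 for other immediate early genes and 5 for heat shock. Fits per gene gave 1 for other immediate early genes and 0 for glucocorticoid genes in both forms. Without single arrays heat shock had 0 to 1 and glucocorticoid genes 0 to 0.

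Over whole arrays the same-number correlations of deviations were 0.0884, 0.0826, 0.273 and -0.202. LPA4-KO replicates 2 and 3 correlated best with the WT array of their own number, and replicates 1 and 4 did not. Such correlations cannot decide whether the numbers pair the samples, because a pairing that moves few genes would hardly show in them. The replicate block left 3 of all probe sets called, 0 of the immediate early genes, 0 for heat shock and 0 for glucocorticoid genes. Among the varying ones the block called 959 and 1 immediate early gene, Fos (limma adjusted p = 0.048, 0.048 to 0.62 over all alternatives). The cause of these shifts was not tested.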
